A study of Mus musculus with 18 samples.

Results

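The integrin and laminin genes of sorted mouse thyroid cells were followed across a surgery and a sort. A gene was a member if its name on the array was Itga or Itgb with its number or letters, or Lama, Lamb or Lamc with its number. This rule found 35 genes, 25 integrin and 10 laminin, among 27962 gene names, and 34 of them were measured among 20467 measured genes. A measured gene had a probe well above its local background in the sample channel on at least 3 of the 18 arrays, and the brightest such probe stood for the gene. Itga10, a collagen-binding integrin of cartilage, was the unmeasured member, well above background on 0 arrays. The gene of the laminin beta 1 chain carries the name Lamb1-1 on this array and so fell outside the rule. It is described with the other basement membrane genes.

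All mice were C57BL/6, of both sexes per the labels, and every sample came from thyroid that had been digested with collagenase and dispase 1 and then cultured for 2 days. Cells were stained with Hoechst 33342, a DNA dye, with or without verapamil, a blocker of its efflux, and were sorted into a side population that exports the dye and a main population that retains it. The 4 groups were the control side population (CSP, 6 arrays), the control main population (CMP, 3 arrays), the side population after partial thyroidectomy (TSP, 6 arrays) and the main population after partial thyroidectomy (TMP, 3 arrays). Control mice had no partial thyroidectomy. The labels used here give no age, no time between surgery and harvest and no number of animals per sample, and the design text calls the samples biological replicates. The side population is a gate on dye efflux and not on a lineage, so each sample is a mixture of the cell types that passed the gate. Each array compared a sample labelled with Cy5 to one common reference RNA labelled with Cy3, made from 10 tissues of Swiss Webster mice, and each value is the log2 ratio of sample to reference. A level of 0 therefore equals that of the reference, and levels of different genes are not set against each other.

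Integrins are pairs of an alpha and a beta chain that span the cell membrane and bind matrix proteins or other cells. The beta 4 chain pairs with alpha 6 in hemidesmosomes, the junctions that fix epithelial cells to the basement membrane, and the beta 6 chain pairs with alpha V in an epithelial receptor that activates latent TGF-beta. The beta 2 and beta 7 chains belong to leukocytes. Laminins are trimers of an alpha, a beta and a gamma chain and form the mesh of basement membranes. The alpha 3 and beta 3 chains belong to the laminin of epithelial hemidesmosomes, alpha 4 is a chain of blood vessel walls, and alpha 2 is a chain of muscle and nerve. Thyroid follicles are single layers of epithelium, each wrapped in a basement membrane and a dense capillary net.

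The probes are 60 bases long and are printed for the members whose size of change or whose probe design the results turn on. They are printed as the deposited files give them, in lower case, with those files' positions on the mouse build mm7. Itgb6 had 3 measured probes, and the pair shown beside each other lies at different places in the gene. The first lies on the minus strand of chromosome 2 at chr2:60585280-60585339, and the second spans chr2:60531124-60535739, a stretch of 4616 bases, so it crosses at least one splice junction.
Itgb6 probe 1: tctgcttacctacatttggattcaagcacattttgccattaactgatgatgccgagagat
Itgb6 probe 2: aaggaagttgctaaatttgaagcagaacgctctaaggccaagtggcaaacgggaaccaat
Lamb3 had a single measured probe on the plus strand of chromosome 1, spanning 2532 bases at chr1:192893546-192896077, and it also crosses a junction.
Lamb3 probe: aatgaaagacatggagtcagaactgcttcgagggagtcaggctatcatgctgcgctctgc
A pair of Lama4 probes on the plus strand of chromosome 10 overlap. The 29 bases in capitals are the same stretch in both, at the end of probe 1 (chr10:38885025-38885815, a span of 791 bases) and at the start of probe 2 (chr10:38885787-38885846), so their readings are not independent.
Lama4 probe 1: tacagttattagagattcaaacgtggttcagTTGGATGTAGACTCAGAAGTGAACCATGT
Lama4 probe 2: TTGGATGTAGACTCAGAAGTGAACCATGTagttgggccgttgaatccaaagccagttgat

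Between 38.8% and 72% of spots were well above background per array, and the arrays of slides 1 and 5 had the higher background in the sample channel. Of the 34 measured members, 18 were well above background on all 18 arrays and 4 on fewer than 9. Arrays TSP 1 and TSP 2, both on slide 1, stood apart from the other side population arrays. Across the 34 members, genes that share arrays and reference, their profile had a median r of 0.983 (0.936 to 0.996) with the CMP and TMP arrays and of 0.546 (0.402 to 0.694) with CSP 1 to 6 and TSP 3 to 6, which had a median r of 0.89 among themselves. The mean level of 8 epithelial marker genes was 4.38 and 4.26 on TSP 1 and TSP 2, against 0.15 to 1.17 on TSP 3 to 6 and 3.75 to 4.46 on the TMP arrays. The mean of 9 endothelial markers was -1.54 and -1.48 there, against 1.36 to 2.58 on TSP 3 to 6. These arrays read like the main population although labelled as side population, and the comparisons that hold TSP arrays were made with and without both. Both were singled out by levels in these same data, so results without them are not an independent test.

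Markers of other cell types moved with the sort, in a comparison of CSP with CMP that called 7.65% of all genes higher and 7.21% lower. In CSP against CMP, all 9 endothelial markers and 6 of 8 fibroblast markers were higher by limma's adjusted p, and all 8 epithelial and 7 of 11 thyroid follicular markers were lower. Endothelial markers averaged 1.13 to 3.14 on the CSP arrays and -1.66 to -1.11 on the CMP arrays. Epithelial markers averaged -1.26 to 2.69 on CSP and 3.80 to 4.27 on CMP. Fibroblast markers averaged -2.30 to 0.46 against -4.23 to -3.55, follicular markers -0.14 to 1.44 against 2.12 to 2.59, and smooth muscle markers -0.44 to 0.68 against -1.82 to -0.95, with 1 of 6 smooth muscle markers higher. Leukocyte markers averaged -2.68 to -1.96 on CSP and -2 to -1.63 on CMP, with 1 of 10 lower. Of 3 measured platelet markers 2 were lower and 0 were higher, and of 3 Schwann cell markers none was called. A ratio to a reference has no true zero. Between 1 and 10 of the 11 follicular markers passed background per CSP array and between 9 and 11 per CMP array. The part of cell composition in the member results was not tested. In bulk samples fewer cells of a type and less RNA per cell cannot be told apart.

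The first comparison asked how the side population differs from the main population in mice without surgery. Itgb6, Itgb4, Itgb8 and the epithelial laminin chains Lama3 and Lamb3 were among those lower, and Itgb3, Itga5, Itga7 and Lama4 were higher. In all, 10 of 34 members passed limma's adjusted p under 0.05, against 14.9% of all 20467 genes, and 17 members (50%) had an unadjusted p under 0.05, beside 29.3% of all genes. By direction 4 members were higher and 6 were lower, where 7.65% and 7.21% of all genes were. The median difference over the members was 0.08, beside 0.06 over all genes, and the members ranged from -3.59 to 3.06. Without TSP 1 and TSP 2 the same comparison called 13 members against 19.2% of all genes, 5 of them higher (10.2% of all genes) and 8 lower (8.99%). The split was 3 higher and 8 lower with the processed signals of the scanner software, and likewise with median centring, each a shift of all genes downward. The count depended on CMP 1 and CMP 2: 0 members were called without CMP 2, and 4 (Itgb3, Lama3, Lama4 and Lamb3) without CMP 1. The share of all genes is not given for these fits. Once TSP 1 and TSP 2 were left out as well, 10 members were called without CMP 1, beside 2681 of 20467 genes. Likewise 10 were called without CMP 2, beside 2697 genes.

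**Figure D1:**
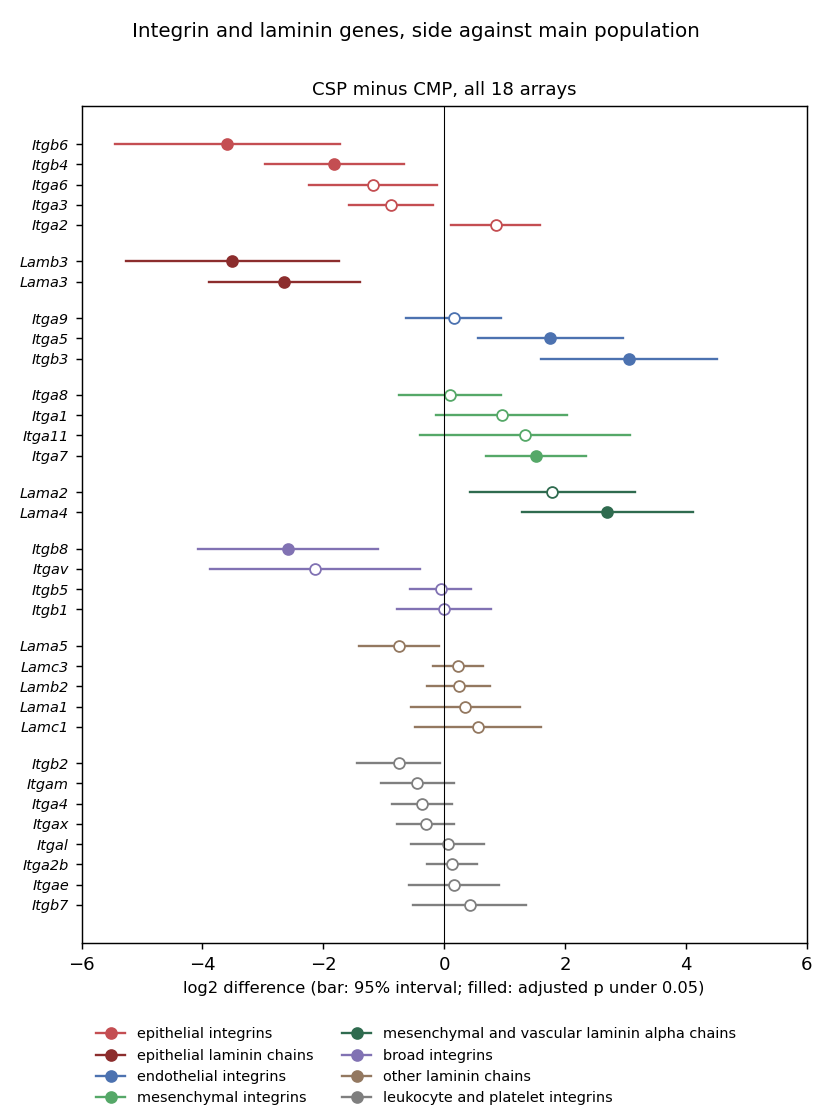
Log2 difference of the control side population minus the control main population for measured members, grouped by role, with 95% intervals from limma; filled points passed an adjusted p under 0.05 over all genes. Itgb6 and Lamb3 lie lowest, at -3.59 and -3.50, and Itgb3 and Lama4 highest, at 3.06 and 2.70.

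Of the 5 epithelial integrins, 2 were lower, 0 were higher and 3 did not pass. Itgb6, the epithelial partner of alpha V, had a CSP lowest of -1.09, median of -0.69 and highest of 1.65, and CMP values of 3.76, 3.21 and 3.06. CSP 6 was the highest of the CSP arrays and still lay below every CMP array. The difference was -3.59 (SE 0.89), a 12-fold lower level, with limma's adjusted p = 0.013. All 3 of its measured probes were lower. In the fit of each probe on its own, 13.2% of 29822 probes were called. There probe 1 above read -3.72 with limma's adjusted p = 0.00995, while probe 2 read -2.54 with limma's adjusted p = 0.102. Probe 1 was well above background on 1 of 6 CSP arrays and probe 2 on 3 of 6, so both are set against a group partly near background. The -3.59 came from the remaining probe, well above background on all 18 arrays.

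Itgb4, the hemidesmosome integrin, had CSP values from -0.01 to 2.33 with a median of 0.72, and CMP values of 2.34, 2.79 and 3.04. The highest CSP array reached almost to the lowest CMP array, without overlap. It was 3.53-fold lower (log2 -1.82, SE 0.55, limma's adjusted p = 0.0322), and all 3 of its probes were called lower on their own. A pair of them overlap by position (chr11:116117288-116117347 and chr11:116117278-116117337), so their readings are not independent. The remaining one was well above background on 2 of 6 CSP arrays. Its obligate partner Itga6 did not pass: CSP ranged from -1.55 to 0.31 (median -0.77) and CMP read 0.76, 0.72 and -0.02, so the groups overlapped through CMP 3, and the difference was -1.18 (SE 0.51, limma's adjusted p = 0.126). Of the 3 measured Itga6 probes, another on all 18 arrays read -1.37 (limma's adjusted p = 0.0601). The remaining one read -0.57 (limma's adjusted p = 0.643). Itga3, a laminin receptor chain of epithelia, ranged from 0.99 to 2.27 (median 1.12) on CSP and read 2.09, 2.42 and 2.34 on CMP. Its brightest probe gave -0.88 (limma's adjusted p = 0.0814, and 0.0355 without TSP 1 and TSP 2). Another of its 3 probes gave -2.44 (limma's adjusted p = 0.0299) and the remaining one -0.47 (limma's adjusted p = 0.437). This gene's size of change thus depended on the probe.

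Itga2, the collagen receptor alpha 2 chain of epithelia and platelets, went the other way without passing. Its CSP values ran from 0.49 to 2.05 (median 0.83) and its CMP values were -0.10, 0.04 and 0.56. It was well above background on 4 of 6 CSP arrays and on no CMP array. The CSP mean was 1.68-fold above a floor set by the dimmest detected probes, a point estimate and not a lower bound. CSP and CMP arrays overlapped, and the fitted log2 difference was 0.85 with limma's interval from 0.12 to 1.59. The fit's adjusted p by limma was 0.11.

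The epithelial laminin chains Lamb3 and Lama3 were both lower. Lamb3, the beta 3 chain, had a CSP lowest of -1.41, median of -0.15 and highest of 1.88, and CMP values of 3.51, 3.87 and 3.17. Every CMP array was above every CSP array. The level was 11.3-fold lower (log2 -3.50, SE 0.84, limma's adjusted p = 0.0117), read by the single probe printed above, which was well above background on 4 of 6 CSP and all 3 CMP arrays.

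Lama3, the alpha 3 chain, ran from -0.96 to 0.57 (median -0.52) on CSP and read 1.98, 2.29 and 2.25 on CMP. The groups were separated by more than 1 log2 unit, and the level was 6.26-fold lower (log2 -2.65, SE 0.59, limma's adjusted p = 0.00951). Its other measured probe, above background on 4 arrays, read -0.22.

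**Figure D2:**
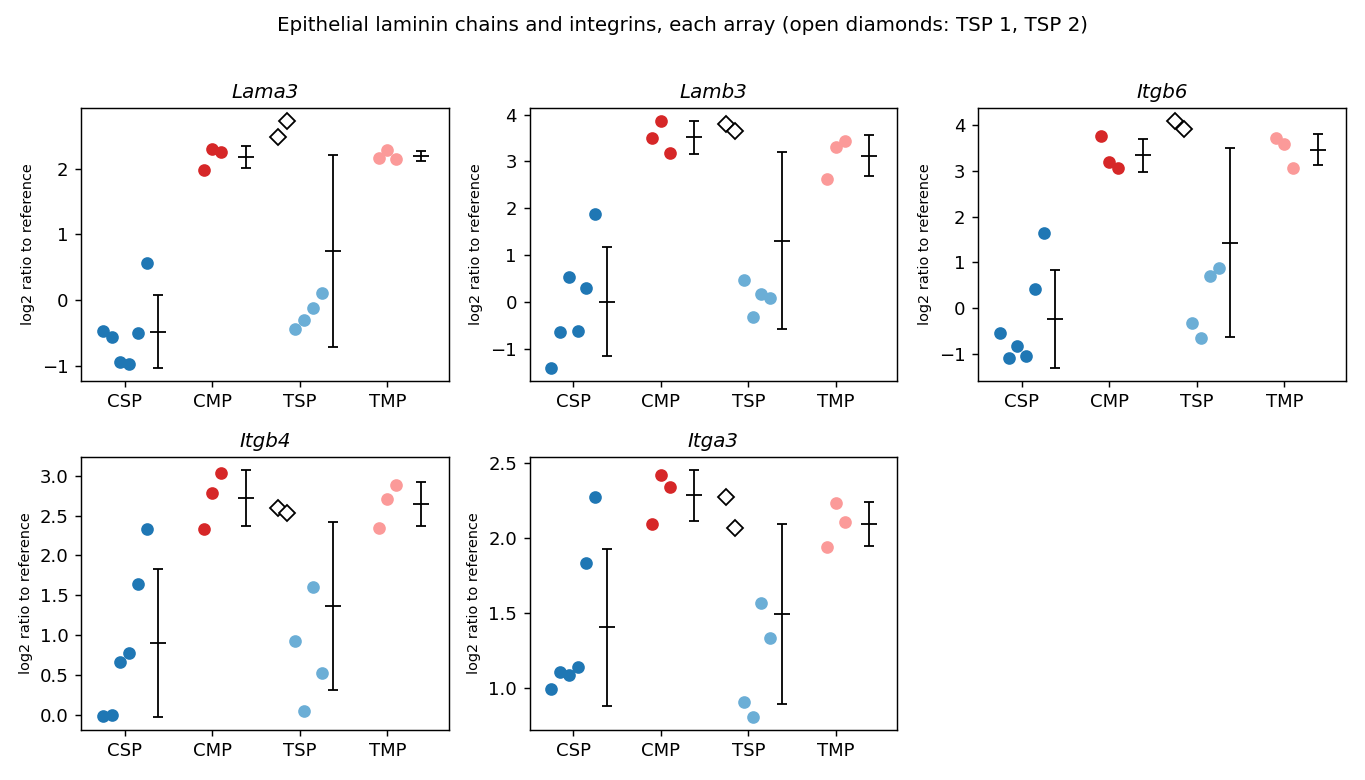
Log2 ratio to the common reference on each of the 18 arrays, by group, for Lama3, Lamb3, Itgb6, Itgb4 and Itga3; bars are the group mean and SD and open diamonds are TSP 1 and TSP 2. The CMP and TMP arrays sit high, CSP 6 is the highest CSP array for Itgb6 at 1.65, and TSP 1 and TSP 2 sit with the main population at 4.10 and 3.92.

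Of the broadly expressed integrins, Itgb8 was lower and Itgav, Itgb1 and Itgb5 were not called. Itgb8, a TGF-beta activating partner of alpha V, ranged from -4.27 to -3.32 (median -3.85) on CSP and read -1.22, -0.06 and -2.55 on CMP. The CMP arrays spread widely, with CMP 3 nearest to the side population. It was 5.99-fold lower (log2 -2.58, SE 0.71, limma's adjusted p = 0.0215), and well above background on only 1 of 6 CSP arrays, so the fold is set against a group mostly near background. Its other 2 measured probes read -1.3 (limma's adjusted p = 0.028) and -0.16 (limma's adjusted p = 0.787), so the size depended on the probe.

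Itgav, the alpha V chain that pairs with beta 3, 5, 6 and 8, ran from -0.65 to 0.41 (median -0.05) on CSP and read 2.86, 2.63 and 0.50 on CMP. CMP 3, on slide 5, stood near the side population, and TMP 3 on the same slide read 0.61 beside 2.86 and 2.81 for TMP 1 and TMP 2. The difference was -2.14 (SE 0.83, limma's adjusted p = 0.0894), and it passed without TSP 1 and TSP 2 (limma's adjusted p = 0.00522). One of its 3 probes had the opposite sign, at 0.46. Itgb1, the common beta chain, differed by -0.01 with a 95% interval from -0.78 to 0.77. Its second probe, also well above background on all 18 arrays, read -0.78 (SE 0.47, limma's adjusted p = 0.303). Itgb5, another partner of alpha V, differed by -0.06 with an interval from -0.56 to 0.45.

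Of the 3 integrins listed as endothelial, 2 were higher and Itga9, a lymphatic endothelial chain, did not pass at 0.16 (SE 0.38). Itgb3, the beta chain of the vitronectin receptor of growing vessels and of the platelet fibrinogen receptor, ranged from 1.81 to 3.06 (median 2.78) on CSP and read -0.71, -0.65 and 0.10 on CMP. The groups were far apart on this probe, which lies at chr11:104779399-104779458 and is annotated from a cDNA clone. It was 8.37-fold higher (log2 3.06, SE 0.69, limma's adjusted p = 0.0097).

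The second Itgb3 probe, annotated from RefSeq and placed at chr11:104776217-104776287, gave another reading. It ranged from -0.31 to 1.02 (median 0.64) on CSP and read 0.30, 0.44 and 0.63 on CMP, and both probes were well above background on all 18 arrays. Its groups overlapped, the difference was 0.03 (SE 0.28, limma's adjusted p = 0.964), and a fit with this probe for Itgb3 called 9 members. The Itgb3 result therefore belongs to one probe.

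Itga5, the fibronectin receptor alpha chain, ranged from 1.27 to 3.57 (median 1.68) on CSP and read 0.47, 0.07 and 0.70 on CMP. The groups did not overlap, and it was 3.39-fold higher (log2 1.76, SE 0.57, limma's adjusted p = 0.0454), near the threshold. It lost the call in 17 of 32 alternatives, with values between 1.06 and 3.43.

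Of the 4 measured mesenchymal integrins 1 was higher. Itga7, a laminin receptor chain of muscle and vessel walls, ranged from 0.60 to 2.44 (median 1.35) on CSP and read -0.23, -0.21 and 0.11 on CMP. Every CSP array lay above the CMP arrays, and the level was 2.86-fold higher (log2 1.52, SE 0.39, limma's adjusted p = 0.0154). Its second probe, well above background on 10 arrays, read 0.88 and was not called (limma's adjusted p = 0.224). Itga11, a collagen receptor of fibroblasts, spread from -0.53 to 2.99 (median 1.59) on CSP and overlapped CMP at -0.46, -0.12 and 0.72. Its difference was 1.34 (SE 0.83) and its adjusted p by limma was 0.309. Itga1, a collagen receptor of smooth muscle, ranged from -1.78 to 0.96 (median -0.10) beside -1.53, -1.03 and -0.81 on CMP, with a difference of 0.95 and limma's adjusted p = 0.24. Itga8, a receptor of smooth muscle and kidney mesenchyme, differed by 0.10 (SE 0.40), a sign that turned with other scalings, as did that of Itga9.

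Of the pair of laminin alpha chains of vessels and mesenchyme, Lama4 was higher and Lama2 was not called. Lama4 ranged from -0.08 to 1.34 (median 0.63) on CSP and read -1.85, -2.63 and -1.93 on CMP. No array of one group reached the other, and the level was 6.51-fold higher (log2 2.70, SE 0.67, limma's adjusted p = 0.0134). Its 3 probes, of which the printed pair overlaps, read 2.70, 2.62 and 1.5 and were all called on their own.

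Lama2, the alpha 2 chain, ran from -2.84 to -0.39 (median -1.17) on CSP and read -3.19, -3.53 and -2.35 on CMP. CSP 3 was the lowest and overlapped CMP 3. The difference was 1.79 (SE 0.65) with limma's adjusted p = 0.0713, and it was called without TSP 1 and TSP 2 (limma's adjusted p = 0.00881). One of its 3 probes read -0.15, with the opposite sign.

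**Figure D3:**
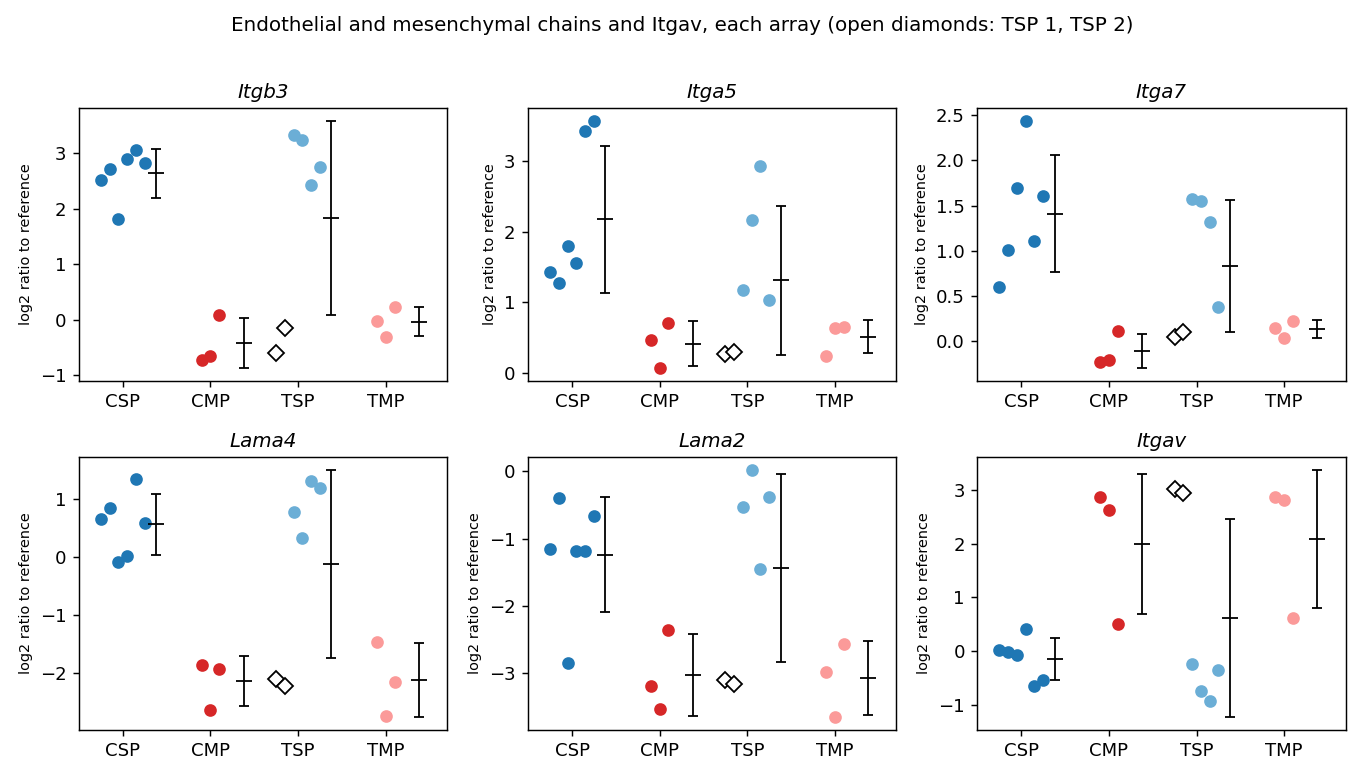
Log2 ratio to the common reference on each of the 18 arrays, by group, for Itgb3, Itga5, Itga7, Lama4, Lama2 and Itgav; bars are the group mean and SD and open diamonds are TSP 1 and TSP 2. The CSP arrays lie above the CMP arrays for Itgb3, Itga5, Itga7 and Lama4, and Itgav has CMP 3 and TMP 3 at 0.50 and 0.61, below the other main population arrays.

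None of the 8 measured leukocyte and platelet integrins was called, and the smallest adjusted p by limma was 0.131. Itgb2, the common beta chain of leukocyte integrins, ranged from -3.25 to -2.25 (median -2.68) on CSP and read -2.08, -2.24 and -1.70 on CMP. The CMP arrays were all above the CSP arrays, but by little, and the difference of -0.76 (SE 0.33) did not pass. Itgam, the alpha chain of myeloid cells, ranged from -1.49 to -0.90 (median -1.27) and read -0.86, -0.76 and -0.78 on CMP, a difference of -0.44 (SE 0.28, limma's adjusted p = 0.328). Itgb7, a lymphocyte beta chain, had the largest difference upward in this list, 0.42 (SE 0.45), with CSP from -3.03 to -0.91 (median -2.48) and CMP at -2.84, -3.31 and -2.05. Itgae, the alpha chain of intraepithelial lymphocytes, followed at 0.16 (SE 0.36), from -2.48 to -1.67 (median -2.33) on CSP and -2.48, -2.75 and -1.96 on CMP, overlapping and with a sign that turned under other scalings. The other 4 (Itga2b, Itga4, Itgal and Itgax) differed by -0.37 to 0.13.

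Of the other 5 laminin chains none was called. Lama5, the alpha 5 chain of mature epithelial and vascular basement membranes, ranged from 1.87 to 2.88 (median 2.49) on CSP and read 3.18, 3.33 and 2.90 on CMP. The groups just missed each other, with a difference of -0.74 (SE 0.32, limma's adjusted p = 0.123). Lamc1, the gamma 1 chain of most laminins, spread from -0.71 to 1.42 (median 0.24) beside -0.58, -0.45 and 0.14 on CMP, a difference of 0.56 (SE 0.50, limma's adjusted p = 0.502). Lama1, the alpha 1 chain of early basement membranes, spread from -2.57 to -0.02 (median -1.38) on CSP beside -1.88, -1.87 and -1.73, a difference of 0.35 (SE 0.43). Lamb2, the beta 2 chain, and Lamc3, the gamma 3 chain, differed by 0.24 and 0.23.

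Arrays of CSP and CMP did not overlap for 14 of 34 members, 4 higher and 10 lower, where 11.2% and 9.1% of all genes separated in each direction. Slide was taken into account in turn, though only slide 4 held both CSP and CMP arrays. For the other slides the block rests on TSP and TMP arrays, TSP 1 and TSP 2 among them. Population and slide are thus partly confounded. With slide as a fixed block 15 members were called (9 higher and 6 lower) against 28% of all genes, with Itga1, Itga2, Itga8, Itgav, Lama2 and Lamc1 added and Itgb4 lost. The same block without TSP 1 and TSP 2 called 12 (5 higher and 7 lower) against 21.1%. On slide 4 alone (CSP 5 and 6 against the single array CMP 2) no member and 0 of all genes passed. The values there, from arrays that also made the calls, had Itgb6 at -2.18, Lamb3 at -2.77, Itgb3 at 3.59 and Lama4 at 3.60.

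**Figure D4:**
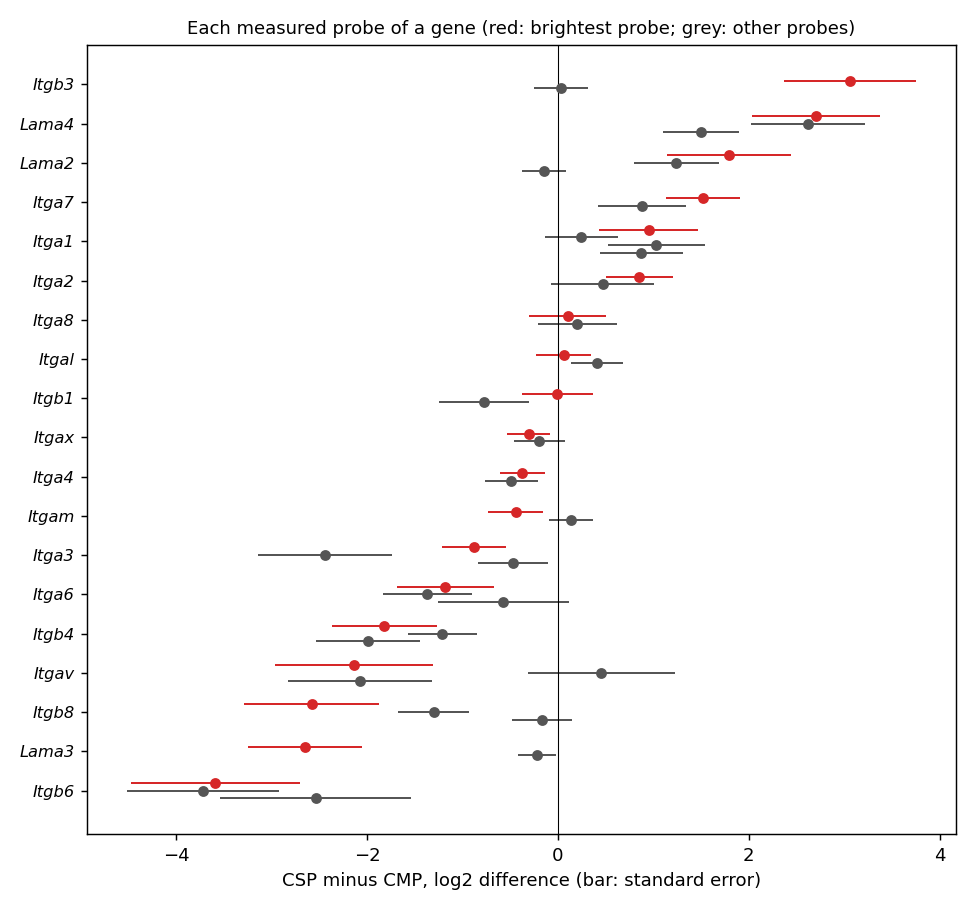
Log2 difference of the control side population minus the control main population for the measured probes of members with at least 2 of them, with the brightest in red and the SE as a bar. Itgav, Itgam and Lama2 have probes of both signs, and Itgb3 has readings of 3.06 and 0.03.

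The second comparison asked the same question after partial thyroidectomy, with its own arrays. Over all arrays none of the 34 members was called in TSP against TMP (0% of all genes called), 12 members (35.3%) had an unadjusted p under 0.05 beside 13.7% of all genes, and the smallest adjusted p by limma was 0.255. Without TSP 1 and TSP 2, limma called 12 members, 3 higher and 9 lower, against 14.7% of all genes (7.7% higher and 7.01% lower). Among the lower were Itgb6, Lamb3, Itgav, Itgb8, Lama3, Itgb4, Itgam and Itga3, and the 3 higher were Itgb3, Lama4 and Lama2. Leaving out a further array gave between 10 and 13 members, beside 2041 to 3141 of 20467 genes. Itga3 was lost most often, and Itgam was lost without TSP 3, TSP 4 or TMP 1. The same marker lists moved here without TSP 1 and TSP 2: 9 of 9 endothelial and 8 of 8 fibroblast markers were higher, and 8 of 8 epithelial and 8 of 11 follicular markers were lower. TSP 3 to 6 and TMP did not overlap for 15 members, 7 higher (12.6% of all genes) and 8 lower (11.2%), while over all 6 TSP arrays 0 members separated in either direction (1.48% and 2.5% of all genes).

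Itgb6 read 4.10 and 3.92 on TSP 1 and TSP 2, but -0.32, -0.67, 0.70 and 0.87 on TSP 3 to 6, and 3.72, 3.60 and 3.08 on TMP. TSP 3 to 6 lay below every TMP array. Without the first pair of arrays it was 10-fold lower (log2 -3.32, SE 0.55, limma's adjusted p = 0.000424), and over all arrays its difference was -2.03 (limma's adjusted p = 0.322).

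Lamb3 showed the same split, at 3.79 and 3.65 on TSP 1 and TSP 2, 0.48, -0.32, 0.17 and 0.09 on TSP 3 to 6, and 2.62, 3.31 and 3.43 on TMP. It was 8.09-fold lower without TSP 1 and TSP 2 (limma's adjusted p = 0.000807). Lama3 read 2.48 and 2.73, then -0.43, -0.29, -0.12 and 0.12, beside 2.15, 2.28 and 2.15 on TMP, and was 5.18-fold lower (limma's adjusted p = 3.92e-05). Itgb4 was 3.66-fold lower (limma's adjusted p = 0.0128). Of the 5 epithelial integrins 3 were lower without TSP 1 and TSP 2. Itga6 did not pass (log2 -1.20, limma's adjusted p = 0.111). In the fit of each probe on its own, 3770 of 29822 probes were called without TSP 1 and TSP 2. There another Itga6 probe was called lower at -1.47 (limma's adjusted p = 0.0115). The remaining Itga6 probe read 0.24 (limma's adjusted p = 0.892), and the second Lama3 probe read -0.15 (limma's adjusted p = 0.763). The brightest Itga3 probe read -0.94 there, and the others -2.18 and -0.61 (limma's adjusted p = 0.0524, 0.0143 and 0.347). The overlapping Itgb4 probes were called lower, and the remaining one read -0.99 (limma's adjusted p = 0.0919). For Itgb6, probe 1 read -3.52 and probe 2 read -2.25 (limma's adjusted p = 0.000127 and 0.157). Over all arrays the differences were -1.81 for Lamb3, -1.44 for Lama3 and -1.28 for Itgb4, with limma's adjusted p of 0.351, 0.296 and 0.317.

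Lama4 read -2.10 and -2.22 on TSP 1 and TSP 2, 0.78, 0.33, 1.31 and 1.2 on TSP 3 to 6, and -1.46, -2.74 and -2.15 on TMP. It was 8.12-fold higher without the first pair of arrays (log2 3.02, SE 0.37, limma's adjusted p = 2.98e-05). Itgb3, on its brightest probe, read -0.60 and -0.14, then 3.34, 3.25, 2.43 and 2.76, beside -0.01, -0.30 and 0.23 on TMP, and was 7.85-fold higher (limma's adjusted p = 6.45e-06). Lama2 read -3.10 and -3.16, then -0.53, 0.03, -1.45 and -0.39, beside -2.99, -3.65 and -2.56, and was 5.58-fold higher (limma's adjusted p = 0.00178). All 3 separated TSP 3 to 6 from TMP without overlap. Over all arrays they differed by 2.00, 1.87 and 1.63, with limma's adjusted p of 0.255, 0.264 and 0.285. Without TSP 1 and TSP 2, the RefSeq probe of Itgb3, fitted on its own, read 0.36 (limma's adjusted p = 0.538). The other Lama2 probes read 1.67 and 0.27 (limma's adjusted p = 0.0049 and 0.587).

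Itgav, at 3.01 and 2.93 on TSP 1 and TSP 2 and -0.24, -0.73, -0.93 and -0.35 on TSP 3 to 6, was 6.31-fold lower than TMP (limma's adjusted p = 0.00233). Itgb8 was 5.3-fold lower (limma's adjusted p = 0.00588), with an overlap between TSP 6 at -2.59 and TMP 3 at -2.66. Itgam was 1.92-fold lower (limma's adjusted p = 0.0244). With slide as a fixed block neither Itgb8 (-1.61, limma's adjusted p = 0.0802) nor Itgam (-0.78, limma's adjusted p = 0.101) passed. Over all arrays Itgav, Itgb8 and Itgam differed by -1.48, -1.52 and -0.70, with limma's adjusted p of 0.466, 0.354 and 0.292. Fitted singly without TSP 1 and TSP 2, the other Itgav probes read -2.35 and 1 (limma's adjusted p = 0.00317 and 0.523). Other Itgb8 probes read -1.65 and -0.18 (limma's adjusted p = 0.00113 and 0.816). The other Itgam probe read -0.62 (limma's adjusted p = 0.0957). Itga4 read 0.26 on its brightest probe and -1.09 on another (limma's adjusted p = 0.615 and 0.00427), well above background on 4 and 5 of all arrays. The brightest was so on 0 TSP and 0 TMP arrays, and the other on 0 TSP and 3 TMP arrays. Neither reading rests on a detected TSP level. Itga5 and Itga7, called in the controls, gave 1.31 and 1.07 here, with limma's adjusted p of 0.133 and 0.0625, and with slide as a fixed block Itga5 was called (1.87, limma's adjusted p = 0.0329). The interaction below asks whether they differ from the controls. With slide as a fixed block 2 members, Lama4 and Lamc1, were called over all arrays (1.08% of all genes) and 12 without TSP 1 and TSP 2 (15.7%), where Itga5 and Lamc1 were gained and Itgb8 and Itgam lost. On slide 5 alone, with TSP 5 and 6 against the single array TMP 3, 2 members passed (Lama4 and Lamb3), as did 328 of 20467 genes. The lone array is assumed to vary like the other groups.

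Without TSP 1 and TSP 2 the side against main comparisons called 13 members in the controls and 12 after surgery, and 11 were called in both with one sign, 84.6% of the first list and 91.7% of the second. Over all genes 2568 were called in both with one sign, 65.3% and 85.3% of the lists. These comparisons share no arrays, though they share one reference and one estimate of the spread. TSP 1 and TSP 2 were left out because their member and marker levels read like the main population. That choice favours a difference after surgery, so the overlap of the lists is not an independent check. Of all 34 members 29 (85.3%) had one sign in both, beside 81.1% of all genes, a share near the background.

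The third question was whether surgery changed these genes within a population. None of the 34 members was called in TSP against CSP, in TMP against CMP or in the interaction of surgery and population, with or without TSP 1 and TSP 2, and 0% of all genes were called. In TSP against CSP over all arrays 2 members had an unadjusted p under 0.05 by limma, Itgb6 at 1.68 and Lama3 at 1.22 (limma's adjusted p = 0.521 and 0.504). This was a share of 5.88% beside 9.21% of all genes. Without TSP 1 and TSP 2 there were 0, beside 3.46% of all genes. With slide as a fixed block Itgb1, the common beta chain, was called in TSP against CSP over all arrays, at 0.79 (SE 0.18, limma's adjusted p = 0.0317, 4.62% of all genes called), and 0 members were called without TSP 1 and TSP 2 (0.0879%). In TMP against CMP and in the interaction, without a slide block, 0 members had an unadjusted p under 0.05 by limma. Of all genes 0.122% and 1.08% did over all arrays, and 0.151% and 0.616% without TSP 1 and TSP 2.

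Once TSP 1 and TSP 2 were left out, differences within the side population ran from -0.42 to 0.70 with a median of 0.15 over the members. Itgb6 differed by 0.39 with a 95% interval from -0.59 to 1.37, Lama3 by 0.29 (-0.24 to 0.83), Itgb3 by 0.30 (-0.27 to 0.87) and Lama4 by 0.34 (-0.32 to 1). These intervals leave room for changes of about 1 log2 unit, so this comparison does not show that surgery left the genes alike. In the main population, with 3 arrays a group and the fit over all 18 arrays, Itgb6 differed by 0.12 (-2.02 to 2.27). Lamb3 differed by -0.39 (-2.43 to 1.64), and the members ranged from -0.46 to 0.61. All groups share one variance per gene, and the largest SE of the epithelial integrins was 1.02 here and 0.588 without TSP 1 and TSP 2. Itgam was the member whose TMP arrays (0.20, -0.38 and -0.40) all lay above its CMP arrays, at a difference of 0.61 that did not pass (1.83% of all genes separated this way and 1.25% the other way). TSP and CSP arrays overlapped for all 34 members.

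The interaction, which asks whether the side against main difference changed with surgery, was 0.27 for Itgb6 (95% interval -1.31 to 1.84), 0.49 for Lamb3 (-1.06 to 2.03) and -0.09 for Itgb3 (-1 to 0.82) without TSP 1 and TSP 2. Over the members it ran from -0.52 to 0.69. Over all arrays it was 1.55 for Itgb6 (-1.07 to 4.18), 1.69 for Lamb3 (-0.80 to 4.18) and -1.2 for Itgb3 (-3.25 to 0.86), and ran from -1.2 to 1.69. On slide 1, where TSP 1 and TSP 2 lie beside CSP 1 and CSP 2, Itgb6 differed by 4.83 and Lama4 by -2.92, and on slide 3 (TSP 3 and 4 beside CSP 3 and 4) by 0.45 and 0.59.

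Other genes of the same machinery, listed by function, moved on both sides in CSP against CMP, where 7.65% of all genes were higher and 7.21% lower. Of 20 genes of the adhesion plaque, the protein layer that ties integrins to actin, 4 were higher (Fermt2, Parvb, Lims2 and Tns3) and 4 were lower (Fermt1, Ptk2b, Tns1 and Flna) by limma. Lims2 and Fermt1, an adapter of endothelial and muscle adhesions and the epithelial kindlin, differed by 3.03 and -3.29. Of 4 hemidesmosome and tetraspanin genes, Dst was higher (1.5) and Cd151, the tetraspanin partner of laminin-binding integrins, was lower (-0.99), and the hemidesmosome genes Col17a1 and Plec were not called. Of 8 measured basement membrane and other laminin receptor genes, the nidogens Nid1 (3.64) and Nid2 (1.65), which link laminin to collagen IV, and Lamb1-1 (1.22, limma's adjusted p = 0.0466) were higher, and the laminin receptors Dag1 (-1.51) and Bcam (-2.96) and the proteoglycan Agrn (-2.22) were lower. Of 11 integrin ligands 4 were higher (Egfl7, Svep1, Vcam1 and Icam2, at 2.51 to 3.53) and 0 were lower. After surgery, without TSP 1 and TSP 2, the counts were 3 higher and 5 lower of 20, 1 and 0 of 4, 4 and 3 of 8, and 4 and 0 of 11. Of all genes 7.7% were higher and 7.01% lower there.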

How the data were processed

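Each of the 18 samples was hybridised with one common reference on a two-colour Agilent whole mouse genome array. The deposited scanner files hold, per spot, intensity values of both channels, their background and a log10 ratio of processed red over green, per the file headers, which name Agilent Feature Extraction 9.5.1.1, while the submitters' processing notes name 8.5.1.1. A deposited table of log2 ratios from the authors was used as an alternative only: several of its columns match another scanner file best, mostly of the same group but for TSP 3 that of CSP 5, and its scale and centring are not stated. Cy5 is the sample per the labels, without dye swap, so dye and sample are not separated.

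Raw intensities were background-corrected (normexp, offset 50) and normalized by loess within arrays, with control spots at weight 0. Flagged spots were left out, spots averaged per probe, and the brightest probe with signal well above background on at least 3 arrays stood for each gene. A mean for each of the 4 groups was fitted with limma 3.58.1 in R 4.3.3 over 20467 genes, with Benjamini-Hochberg adjustment and a call at adjusted p under 0.05. The p-values measure the spread between the samples deposited, whose separate animals the labels do not describe. On simulated data with independent noise and 50 genes changed per fold size, the fit called 84% of 4-fold and 12% of 2-fold changes in CSP against CMP. The real comparison called 3040 of 20467 genes, and arrays on a slide had a correlation of 0.4. The simulated rates are therefore not the power of that comparison.

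Members and lists were chosen with earlier results of these data known. Members called were named, with values array by array for the pair of largest differences in each direction per role and for any member called for surgery, and for the partner of a named chain. Genes of like pattern were not ranked, since the arrays fall into separate clusters. Counts cover every measured member, but 1 member is not reported here by name or value. Alternatives were other normalizations, filters, slide or replicate blocks, and arrays left out.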

Additional observations from a re-analysis of the deposited data

Results flagged for a closer look

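In 3 of the 68 groups of 6 arrays tested (34 members in CSP and in TSP), one array lay far from the rest by Dixon's criterion, a rate that chance alone can give at its 95% level. Lama1 on TSP 6 read -0.51, with the nearest array at -1.68 and the far end at -2.09. Lama2 on CSP 3 read -2.84, with the nearest at -1.19 and the far end at -0.39. Lama3 on CSP 6 read 0.57, with the nearest at -0.47 and the far end at -0.96. CSP 6 was also the highest CSP array for Itgb6, and its 8 epithelial markers averaged 2.69, beside -1.26 to 1.36 on the other CSP arrays. The part of these markers in the Lama3 reading was not tested.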

How the results depend on the processing

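The 10 members called in CSP against CMP were followed through 319 pairs of gene and alternative: 260 kept the call, 59 lost it and 0 changed direction. The count of called members stayed within 1.5 times of 10 under processed signals (11), median centring (11), no filter on dim probes (9), the stricter filter (10), the mean of all probes (10), the authors' deposited log2 ratios (9), slide as a random block (15), slide as a fixed block (15) and without TSP 1 and TSP 2 (13, or 12 with the slide block). It moved to 2 (Lama3 and Lamb3) under scaling between arrays, to 5 under the replicate block, and to 0 within slide 4, where 1 CMP array leaves little to test. Leaving out 1 array gave 0 to 11, with 0 without CMP 2 and 4 without CMP 1. In TSP against TMP the count moved from 0 to 2 with slide as a fixed block, to 12 without TSP 1 and TSP 2 with or without the slide block (which gained Itga5 and Lamc1 and lost Itgb8 and Itgam), to 2 within slide 5, and to 0 to 2 with 1 array left out (2 without TSP 1 and 1 without TSP 2). In TSP against CSP it moved from 0 to 1 (Itgb1) with slide as a fixed block and to 23 within slide 1 (13 higher and 10 lower), where TSP 1 and TSP 2 lie. Pairs of one replicate number across groups had a median r of 0.134 (21 pairs, -0.262 to 0.808, 11 over 0.1). Pairs of other numbers had a median of -0.0234 (96 pairs, 28 over 0.1), and pairs on one slide 0.163. CMP and TMP arrays of one number lay on one slide, so number and slide cannot be told apart there. These values do not settle whether numbers pair samples. The replicate block pairs only numbers, and it gave 0 calls in the other comparisons. The cause of each move was not tested. Shares of all genes are not printed here for most of these settings. A move of the members' count there cannot be told from a change over all genes. Median centring shifted the median of all genes in CSP against CMP from 0.06 to -0.08, and signs turned under a scaling for Itga2b, Itga8, Itga9, Itgae, Itgal, Itgb1 and Itgb5 but for none of the 14 members past 1 log2 unit. Signal near background limits Itga2, Itga2b, Itga4, Lama1 and Itgb8, and on CSP arrays the printed probes of Itgb6. The fits with the RefSeq probe for Itgb3, with each probe on its own, and without TSP 1 and TSP 2 with the slide block or a further array left out were chosen after seeing the data. The choice of TSP 1 and TSP 2 as the arrays to leave out also rests on levels in these same data.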
